A study of Homo sapiens with 12 samples.

Results

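The 2 single treatments of the cholangiocarcinoma line TFK1, radiation alone and nab-paclitaxel alone, were set against each other gene by gene. All 6 libraries that the labels give to the single treatments were used, out of 12 libraries in the series: 3 after radiation of 6 Gy and 3 after nab-paclitaxel at 1.62 ng/ml. TFK1 is an established human line from a bile duct cancer, labelled WT for genotype and grown in RPMI 1640. The other 6 libraries were 3 of untreated cells and 3 of cells given both agents at the same doses. RNA from each group was taken 24 h after treatment and sequenced as messenger RNA. The deposited values are FPKM, fragments scaled by gene length and by a divisor for each library. The series asks how nab-paclitaxel raises sensitivity to radiotherapy, and the direct contrast asks which genes tell the agents apart when each is given alone. The replicates are labelled biological, and nothing more is said of how the cultures were separated, so p-values measure the spread between these libraries.

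Ionising radiation breaks DNA. The breaks activate the ATM and ATR kinases, which stabilise p53 and hold cells before DNA synthesis or before mitosis, and with the hold the transcription of E2F targets and of late cell cycle genes is switched off. Paclitaxel, here bound to albumin particles, binds beta-tubulin inside microtubules and keeps them from depolymerising, so chromosomes fail to align and cells stall in mitosis or leave it with an abnormal chromosome set. Cells also read their pool of unpolymerised tubulin and destroy tubulin mRNA during translation when that pool is large.

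The recovered depth was 14840283 to 17992242 fragments per library, and 13143 to 14244 genes per library reached 1 FPKM. Nab-paclitaxel replicate 1 stood apart from its group. Over the genes tested its root mean square log2 distance from the other nab-paclitaxel replicates was 0.426 and 0.398, against 0.252 between those replicates and 0.239 to 0.244 among the radiation libraries. Radiation and nab-paclitaxel libraries lay 0.342 to 0.520 apart. In the untreated group control replicate 2 stood apart too, at 0.397 and 0.401 from its fellows, which were 0.260 apart. So did combination replicate 2 in its group (0.329 and 0.316, against 0.256). Counts are therefore also given without nab-paclitaxel replicate 1 and without these 3 libraries, a setting added after the data were seen. The contrasts with control below include control replicate 2. Of the markers fixed for bile duct epithelium, KRT19 had a mean of 419 FPKM over the 12 libraries, EPCAM 107, SOX9 86.9 and CDH1 42.7, whereas KRT7 (0.533 FPKM) was close to 0. Markers of lymphocytes and endothelium summed to 0.520 to 1.47 FPKM in any library.

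Radiation and nab-paclitaxel left TFK1 cells with different transcriptomes at 24 h. After nab-paclitaxel the cells held more mRNA of most tested mitotic regulators, DNA replication factors and tubulins. After radiation they held more of the p53-linked noncoding RNAs PURPL and PINCR, of TP53INP1, CPA4 and SUSD2, of some histone mRNAs and of the nuclear RNAs NEAT1 and MALAT1. The p53 target CDKN1A rose from control after both treatments, to levels that overlapped. Over 13609 genes whose mean reached 1 FPKM, 2196 differed (16.1%) at an adjusted p of 0.05 by limma on log2(FPKM + 1). Of these 760 were higher after radiation (5.58% of the genes tested) and 1436 were higher after nab-paclitaxel (10.6%).

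Differences below are radiation minus nab-paclitaxel on the log2(FPKM + 1) scale with their standard error, so a negative value is higher after nab-paclitaxel; the scale understates changes of weakly expressed genes. The median over all tested genes was -0.05. The smallest difference that was called was 0.206 in size. In 2191 of the 2196 called genes the 3 radiation libraries did not overlap the 3 nab-paclitaxel libraries. Over all tested genes every radiation library was the higher in 15.8% and every nab-paclitaxel library in 26.7%. A small p already selects for such a gap, so the count of 2191 is a description. Only 132 called genes differed by at least 1, and in that set the direction was the other way round, with 86 higher after radiation and 46 higher after nab-paclitaxel. The balance of directions moved with the scaling: radiation was the higher side in 34.6% of calls, in 49.0% after quantile normalization and in 48.0% once a trend with gene length was removed from each library, the last chosen after the data were seen. Without radiation replicate 1, 2 or 3 the calls fell to 951, 1077 and 1062, and without nab-paclitaxel replicate 1 there were 1544. Without the 3 libraries that stood apart there were 4077, of which 1381 were higher after radiation and 2696 higher after nab-paclitaxel.

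**Figure D1:**
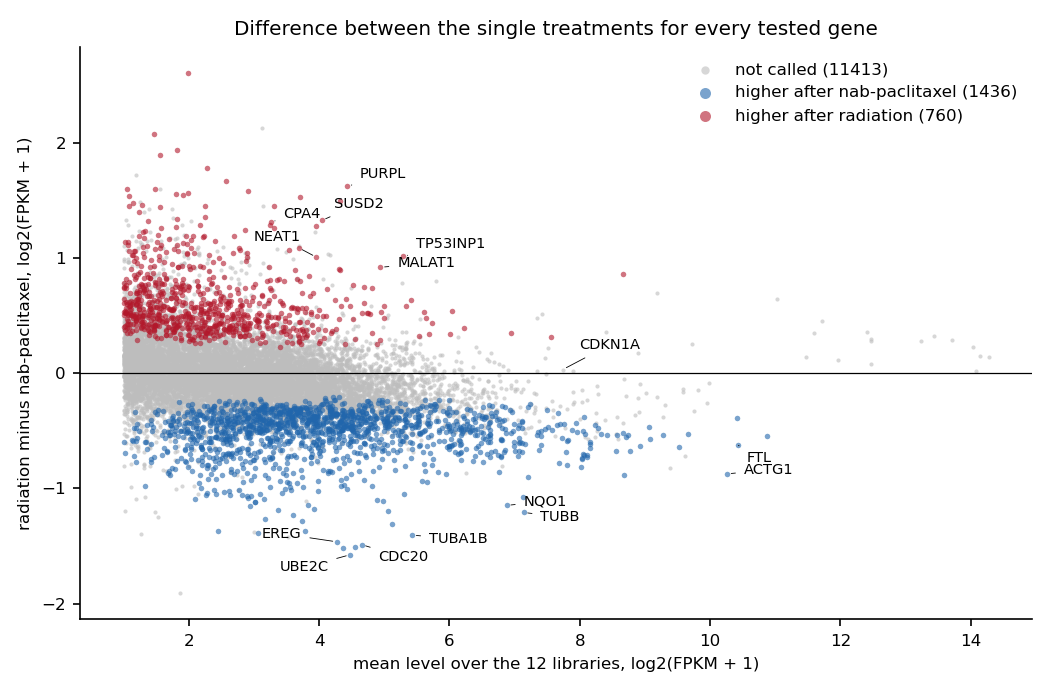
Each point is 1 of the 13609 tested genes; the horizontal axis is its mean level over the 12 libraries and the vertical axis the radiation minus nab-paclitaxel difference, both on the log2(FPKM + 1) scale. The 760 genes higher after radiation (red) crowd at low levels and the 1436 higher after nab-paclitaxel (blue) reach the most abundant mRNAs, such as ACTG1 and FTL, with CDKN1A on the zero line.

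Of the lists with at least 5 tested members, mitosis had the median farthest from 0. Of 59 tested genes of mitosis and the spindle, 49 were higher after nab-paclitaxel, 0 were higher after radiation and 10 did not pass, against 10.6% of all tested genes called in that direction. The median difference over the 59 genes was -0.87, and in 53 of them every nab-paclitaxel library lay above every radiation library, which held for 26.7% of all tested genes. Many of these genes share 2 short promoter elements. They are the cell cycle homology region, which recruits the DREAM complex, a repressor of late cell cycle genes, and the CCAAT box, bound by NF-Y. The promoters of 4 called genes that hold both are shown from RefSeq (GRCh38.p14), from 250 bases before to 50 after the start of the gene and on the strand of the gene, with the strings TTTGAA and TTCGAA and the box CCAAT in capitals on either strand. They lie at chr1:43358731-43359030 (CDC20), chr15:59104896-59105195 (CCNB2), chrX:70289854-70290153 (KIF4A) and chr2:110678014-110678313 (BUB1).
CDC20: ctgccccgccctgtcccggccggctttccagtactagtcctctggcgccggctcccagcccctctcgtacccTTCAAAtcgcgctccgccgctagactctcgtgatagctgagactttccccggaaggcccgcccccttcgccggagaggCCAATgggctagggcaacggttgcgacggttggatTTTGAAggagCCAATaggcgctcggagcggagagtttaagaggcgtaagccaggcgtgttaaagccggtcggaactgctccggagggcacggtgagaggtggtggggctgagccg
CCNB2: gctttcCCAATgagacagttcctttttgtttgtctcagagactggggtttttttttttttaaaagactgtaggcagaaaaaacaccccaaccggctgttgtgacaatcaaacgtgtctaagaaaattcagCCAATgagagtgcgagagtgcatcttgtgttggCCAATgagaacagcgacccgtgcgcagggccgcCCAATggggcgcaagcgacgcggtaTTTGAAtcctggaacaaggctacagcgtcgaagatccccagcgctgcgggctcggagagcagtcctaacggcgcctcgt
KIF4A: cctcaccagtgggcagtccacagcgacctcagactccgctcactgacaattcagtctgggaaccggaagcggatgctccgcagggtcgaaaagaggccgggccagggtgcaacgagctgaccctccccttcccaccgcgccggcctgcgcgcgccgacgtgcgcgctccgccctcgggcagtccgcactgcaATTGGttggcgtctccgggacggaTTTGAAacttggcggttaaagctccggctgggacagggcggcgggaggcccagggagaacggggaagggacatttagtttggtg
BUB1: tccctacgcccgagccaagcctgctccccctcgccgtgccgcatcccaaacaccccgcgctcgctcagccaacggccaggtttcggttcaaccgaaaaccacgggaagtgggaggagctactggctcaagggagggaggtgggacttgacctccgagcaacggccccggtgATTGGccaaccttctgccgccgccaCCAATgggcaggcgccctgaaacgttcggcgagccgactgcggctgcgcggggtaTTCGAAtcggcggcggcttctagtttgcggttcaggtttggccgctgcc

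A promoter was at hand for 50 of the 59 tested mitosis genes. Of these, 70% held TTTGAA or TTCGAA and 76% held CCAAT, and 60% held both. Among the 8945 promoters of all tested protein-coding genes the shares were 10.4%, 37.1% and 4.44%. Genes called higher after nab-paclitaxel held TTTGAA or TTCGAA in 15.5% of 1117 promoters, and genes called higher after radiation in 9.89% of 364. These are matches of letters in a 300-base window, searched on both strands, with no letter string contained in another; they do not show that a factor was bound.

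CDC20, the activator that lets the anaphase-promoting complex destroy cyclin B and securin, stood at 12.3, 13.5 and 12.7 FPKM in the 3 radiation libraries and at 36.4, 38.8 and 38.3 FPKM in the 3 nab-paclitaxel libraries. The groups were far apart with little spread in either, a difference of -1.49 ± 0.08 (adjusted p = 6.26e-06). Untreated cells lay between them at 22 ± 1.43 FPKM (SD, n = 3), and both treatments had moved the gene from there, radiation by -0.73 ± 0.08 (adjusted p = 5.66e-04) and nab-paclitaxel by 0.76 ± 0.08 (adjusted p = 8.21e-04). UBE2C, the ubiquitin-conjugating enzyme of the same complex, had the largest difference of the list, -1.58 ± 0.11. It was measured at 10.6, 10.8 and 9.93 FPKM after radiation and 41.1, 29.6 and 29.8 FPKM after nab-paclitaxel, with nab-paclitaxel replicate 1 the highest. CCNB1, the cyclin that drives entry into mitosis, read 11.2, 9.68 and 9.69 FPKM after radiation and 41.1, 26.2 and 27.4 FPKM after nab-paclitaxel, again without overlap and with replicate 1 on top.

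The same order held for genes that act at other steps. KIF20A, a kinesin of cytokinesis, read 2.25, 2.13 and 2.48 FPKM after radiation and 6.82, 7.66 and 8.03 FPKM after nab-paclitaxel (-1.37 ± 0.11), and here nab-paclitaxel replicate 1 was the lowest of its group. BIRC5, the survivin subunit of the chromosomal passenger complex, differed by -1.37 ± 0.09 and its kinase AURKB by -1.27 ± 0.16. TPX2, which builds spindle microtubules near chromosomes, differed by -1.10 ± 0.07 with 18.3, 17.9 and 18.2 FPKM against 42.9, 39.2 and 38.1 FPKM. HMGB2, a chromatin protein, differed by -1.51 ± 0.12; the pseudogene HMGB1P6 (-1.31 ± 0.11) is near-identical to HMGB1, so its reads are uncertain. The genes that did not pass included the large kinetochore proteins CENPE (0.15 ± 0.15) and CENPF (-0.23 ± 0.11) and the spindle pole protein ASPM (-0.03 ± 0.15). In a bulk sample, fewer cells in late cell cycle phases and less of these mRNAs per cell cannot be told apart.

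In 48 of the 59 mitosis genes the control mean lay between the treated means, against 42.8% of all tested genes. In 11 of the 59 it was above both, against 28.1%. The median change from control was -0.60 after radiation and 0.31 after nab-paclitaxel. These contrasts share the control libraries. By the same threshold 5.93% of all tested genes changed from control after radiation and 8.82% after nab-paclitaxel. Removing the trend with gene length left 44 mitosis genes higher after nab-paclitaxel, quantile normalization 47, and leaving out any single library 42 to 50. It was 44 without nab-paclitaxel replicate 1 and 50 without the 3 libraries that stood apart.

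**Figure D2:**
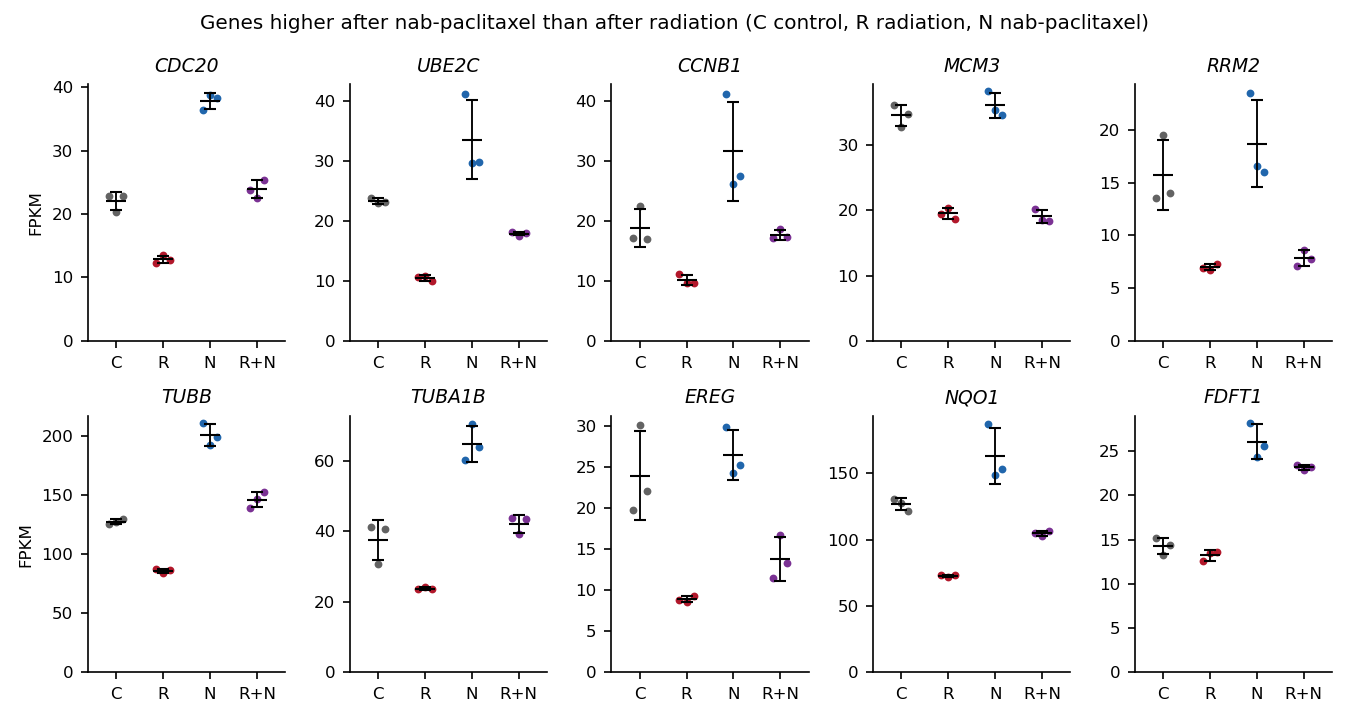
FPKM in each of the 12 libraries for 10 genes higher after nab-paclitaxel (N) than after radiation (R), with untreated controls (C) and the combination (R+N); points are libraries, bars the mean and SD of 3. Radiation has the lowest mean in every panel except MCM3, where the combination lies just below it. Every panel has the control mean between those of the single treatments.

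DNA replication genes followed the same direction almost without exception. Of 50 tested genes 46 were higher after nab-paclitaxel and 0 after radiation, against 10.6% and 5.58% of all tested genes. The list median was -0.69, and 4 genes did not pass (POLE, DNMT1, CDC7 and CCNE2). E2F factors drive many of them before DNA synthesis. Of 44 replication genes with a promoter at hand, 43.2% held the E2F strings TTTCCCGC or TTTGGCGC on either strand, against 3.94% of all tested promoters and 4% of the mitosis genes, whereas TTTGAA or TTCGAA occurred in 6.82%. Promoters of 3 called subunits of the MCM helicase are shown in the same way, at chr6:52284693-52284992 (MCM3), chr7:100101348-100101647 (MCM7) and chr2:135876394-135876693 (MCM6), with the E2F strings and those named above in capitals.
MCM3: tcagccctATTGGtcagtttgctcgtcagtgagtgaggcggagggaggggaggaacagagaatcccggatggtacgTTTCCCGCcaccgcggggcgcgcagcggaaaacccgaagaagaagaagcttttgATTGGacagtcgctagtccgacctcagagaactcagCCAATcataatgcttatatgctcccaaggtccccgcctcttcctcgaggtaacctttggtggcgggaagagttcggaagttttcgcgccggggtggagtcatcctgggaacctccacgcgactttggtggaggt
MCM7: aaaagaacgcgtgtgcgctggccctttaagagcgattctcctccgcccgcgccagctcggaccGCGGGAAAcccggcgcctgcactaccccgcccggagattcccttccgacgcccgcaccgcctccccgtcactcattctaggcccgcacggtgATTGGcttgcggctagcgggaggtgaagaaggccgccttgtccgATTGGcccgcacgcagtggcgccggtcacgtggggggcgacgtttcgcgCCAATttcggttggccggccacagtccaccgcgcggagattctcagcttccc
MCM6: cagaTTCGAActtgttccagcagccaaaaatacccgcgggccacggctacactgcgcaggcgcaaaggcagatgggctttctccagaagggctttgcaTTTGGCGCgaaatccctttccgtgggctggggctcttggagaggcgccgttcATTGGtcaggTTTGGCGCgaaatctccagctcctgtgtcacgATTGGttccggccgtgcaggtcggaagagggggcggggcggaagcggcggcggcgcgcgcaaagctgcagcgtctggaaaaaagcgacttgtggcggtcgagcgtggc

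MCM3, a subunit of the helicase that unwinds DNA at origins, stood at 19.5, 20.4 and 18.7 FPKM after radiation and 38.2, 35.4 and 34.5 FPKM after nab-paclitaxel, a difference of -0.85 ± 0.08 (adjusted p = 8.76e-05). The groups did not overlap, and the untreated mean of 34.5 ± 1.65 FPKM was next to that of nab-paclitaxel (0.06 ± 0.08 from control, adjusted p = 0.655). MCM4 (-0.84 ± 0.07), MCM10 (-0.88 ± 0.09), MCM7 (-0.98 ± 0.10) and MCM6 (-0.85 ± 0.09) differed to a like degree. RRM2, the regulated subunit of ribonucleotide reductase, which makes deoxynucleotides, read 6.95, 6.72 and 7.29 FPKM after radiation and 23.4, 16.6 and 16 FPKM after nab-paclitaxel, with replicate 1 the highest of the nab-paclitaxel libraries. RFC2, part of the clamp loader, differed by -0.95 ± 0.08, and PCNA, the sliding clamp that is also a p53 target, by -0.58 ± 0.13 (adjusted p = 0.231 after quantile normalization). The list's median change from control was -0.56 after radiation and 0.15 after nab-paclitaxel. The control mean was between the treatments in 37 of 50 genes, against 42.8% of all tested genes. MCM3 and RRM2 fell from control after radiation (-0.79 ± 0.08 and -1.04 ± 0.16) and did not pass against control after nab-paclitaxel. The replication count was 46 without nab-paclitaxel replicate 1. It was 30 with a floor of 5 FPKM in place of 1, which leaves weaker members such as MCM10 untested.

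Homologous recombination and Fanconi genes, many of which are also E2F targets, were split. Of 29 tested genes 11 were higher after nab-paclitaxel and 0 after radiation, against 10.6% and 5.58% of all tested genes. The list median was -0.34. FANCD2, the protein that is ubiquitinated at stalled forks, read 1.84, 2.17 and 2.05 FPKM after radiation and 3.99, 3.78 and 3.91 FPKM after nab-paclitaxel (-0.70 ± 0.09, adjusted p = 7.42e-04). RAD54L, a motor protein of strand exchange, differed by -0.83 ± 0.11, the nuclease EXO1 by -0.65 ± 0.09 and the meiotic recombination partner MND1 by -0.85 ± 0.15. Among the 18 that did not pass were BRCA2 (0.08 ± 0.12), NBN (-0.17 ± 0.15) and MRE11 (0.17 ± 0.15). In 20 of the 29 genes the control mean was above both treatments, against 28.1% of all tested genes. With a floor of 5 FPKM in place of 1, which leaves weaker members such as FANCD2 and RAD54L untested, 2 members were called.

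Most p53 targets did not pass the test between the treatments. Of 42 tested targets 7 were higher after radiation, 3 were higher after nab-paclitaxel and 32 did not pass, against 5.58% and 10.6% of all tested genes. The median difference was 0.08, and in 33 of the 42 the control mean was below both treatments, against 29.1% of all tested genes. CDKN1A, which encodes the cyclin-dependent kinase inhibitor p21, read 196, 205 and 198 FPKM after radiation and 199, 204 and 185 FPKM after nab-paclitaxel. The groups overlapped (difference 0.03 ± 0.08, 95% interval -0.14 to 0.20, adjusted p = 0.82), and both were above the untreated mean of 117 ± 7.82 FPKM, radiation by 0.77 ± 0.08 and nab-paclitaxel by 0.74 ± 0.08. After quantile normalization CDKN1A was called higher after radiation (0.40, adjusted p = 0.0117). MDM2, the ubiquitin ligase of p53, differed by 0.09 ± 0.12 (adjusted p = 0.638), the secreted factor GDF15 by -0.08 ± 0.12 and the death receptor FAS by 0.03 ± 0.17.

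TP53INP1, a p53-induced protein of stress and autophagy, was the target that separated the treatments most. It stood at 51.3, 50.3 and 52.2 FPKM after radiation and 25.7, 23.5 and 25.5 FPKM after nab-paclitaxel (1.01 ± 0.11, adjusted p = 3.61e-04). The nab-paclitaxel libraries were close to the untreated mean of 26.1 ± 3.93 FPKM, and the radiation libraries were all above it. EDA2R, a receptor of the tumour necrosis factor family, read 10.01, 8.9 and 9.74 FPKM after radiation and 4.81, 5.84 and 7.31 FPKM after nab-paclitaxel (0.61 ± 0.11). The phosphatase PPM1D, which turns damage signalling off (0.37 ± 0.07), the damage sensor DDB2 (0.44 ± 0.10), the kinase PLK2 (0.34 ± 0.07), the ceramidase ACER2 (0.48 ± 0.11) and the RNA-binding protein ZMAT3 (0.31 ± 0.10) were also higher after radiation. In the other direction, SFN, the 14-3-3 sigma protein that keeps cyclin B out of the nucleus, read 35.5, 36.3 and 32.4 FPKM after radiation and 58.7, 70.8 and 54.8 FPKM after nab-paclitaxel (-0.80 ± 0.16, adjusted p = 0.00736). All 6 of those values exceeded every untreated library, at 23.1, 16.2 and 22.6 FPKM. GADD45A, which binds PCNA and CDK1 (-0.42 ± 0.11), and CMBL (-0.27 ± 0.08) completed the 3 higher after nab-paclitaxel. Single libraries decided several of these smaller calls. Without radiation replicate 1 the adjusted p was 0.0601 for PLK2, 0.0523 for ACER2, 0.141 for ZMAT3, 0.0689 for GADD45A and 0.135 for CMBL. ACER2 also missed without radiation replicate 2 (0.0531), GADD45A without radiation replicate 2 or 3 or nab-paclitaxel replicate 1 or 2 (0.0529 to 0.0923), and ZMAT3 without any 1 radiation or nab-paclitaxel library, control 3 or combination 1 or 3 (0.0598 to 0.141). CMBL missed without any 1 library other than control 2 and combination 1 (0.0513 to 0.135). The count higher after radiation was 4 without radiation replicate 1, 14 after quantile normalization and 12 without nab-paclitaxel replicate 1, control replicate 2 and combination replicate 2 together, a setting added after the data were seen.

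Of the 167 long noncoding and other genes higher after radiation, a few are described. PURPL, a p53-induced RNA that lowers p53 itself, read 36.5, 32.4 and 34.1 FPKM after radiation and 11.2, 9.29 and 11.1 FPKM after nab-paclitaxel (1.62 ± 0.12, adjusted p = 3.51e-05). The radiation libraries were all above the untreated mean of 15.3 ± 2.0 FPKM and the nab-paclitaxel libraries all below it, with changes of 1.12 ± 0.12 (adjusted p = 7.50e-04) and -0.50 ± 0.12 (adjusted p = 0.032). PINCR, a p53-induced RNA linked to survival after damage, read 5.06, 4.72 and 5.68 FPKM after radiation and 1.74, 1.23 and 1.62 FPKM after nab-paclitaxel (1.28 ± 0.10).

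NEAT1, the scaffold of nuclear paraspeckles, read 21.1, 21.9 and 21.9 FPKM after radiation and 10.3, 10.8 and 9.81 FPKM after nab-paclitaxel (1.01 ± 0.08, adjusted p = 3.51e-05), with control between at 15 ± 0.933 FPKM. MALAT1, an abundant RNA of nuclear speckles, read 38.4, 39.6 and 40.03 FPKM after radiation and 21.6, 20.7 and 18.8 FPKM after nab-paclitaxel (0.92 ± 0.10). For MALAT1 the radiation libraries lay within the untreated range of 35.8, 45 and 35.4 FPKM and the nab-paclitaxel libraries below it (-0.89 ± 0.10 from control, adjusted p = 0.00126). LINC00342 (0.92 ± 0.12) and RNF157-AS1 (0.95 ± 0.12) were also higher after radiation. RNF157-AS1 is an antisense transcript, and counting by strand is not stated. These long noncoding RNAs were picked for naming after the values were seen. They had the largest differences among genes of at least 1500 bases, with genes known only by a clone name left out.

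**Figure D3:**
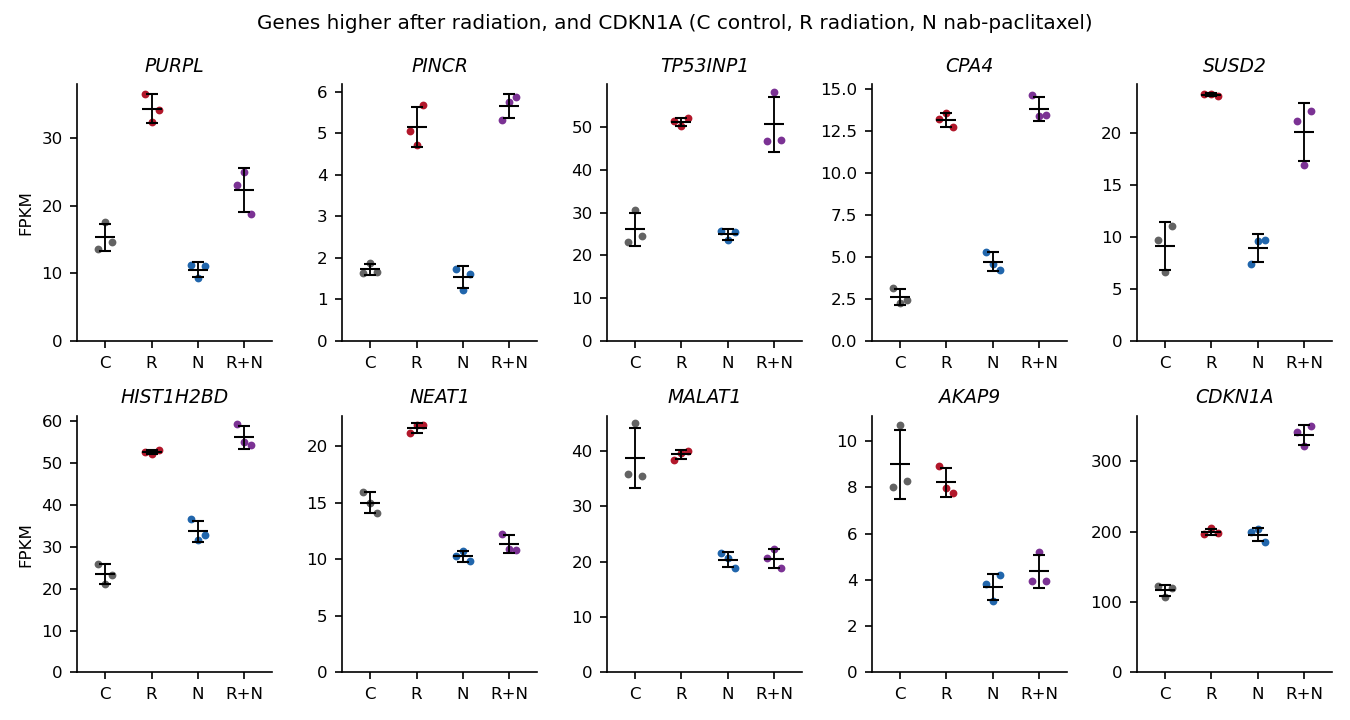
FPKM in each of the 12 libraries for 9 genes higher after radiation (R) than after nab-paclitaxel (N), and for CDKN1A, with untreated controls (C) and the combination (R+N); points are libraries, bars the mean and SD of 3. PINCR, TP53INP1, CPA4 and SUSD2 have the combination near radiation, MALAT1 and AKAP9 have radiation near control and nab-paclitaxel near the combination, and CDKN1A shows no gap between R and N.

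Protein-coding genes of the radiation side had diverse roles. CPA4, a secreted carboxypeptidase, read 13.2, 13.5 and 12.7 FPKM after radiation and 5.31, 4.57 and 4.24 FPKM after nab-paclitaxel (1.31 ± 0.10, adjusted p = 3.51e-05). Both treatments were above every untreated library, at 3.14, 2.27 and 2.41 FPKM, and radiation moved it more (1.98 ± 0.10) than nab-paclitaxel did (0.67 ± 0.10). SUSD2, a membrane protein with a sushi domain, read 23.8, 23.7 and 23.6 FPKM after radiation and 7.39, 9.66 and 9.73 FPKM after nab-paclitaxel (1.33 ± 0.16), where the drug-treated libraries overlapped the untreated range of 9.73, 6.6 and 11.1 FPKM. LAMA3, a laminin chain of epithelial basement membrane, differed by 0.75 ± 0.09, and LAMB3, its partner chain, by 0.37 ± 0.11. LAMB3 was not called without radiation replicate 1, 2 or 3, nab-paclitaxel 1 or 3, control 1 or combination 1 or 3 (adjusted p = 0.0533 to 0.142). AKAP9, a large scaffold of the Golgi and centrosome that anchors microtubule nucleation, read 8.92, 7.97 and 7.75 FPKM after radiation and 3.81, 3.09 and 4.22 FPKM after nab-paclitaxel (0.98 ± 0.13). Its radiation values overlapped the untreated 8.04, 10.7 and 8.26 FPKM, and the drug-treated values were all lower. RNASE1, a secreted ribonuclease, had its 3 radiation libraries above and its drug-treated libraries below every untreated library, with 8.7, 9.76 and 8.25 FPKM after radiation, 4.55, 3.98 and 2.66 FPKM after nab-paclitaxel and 6.93 ± 0.564 FPKM in control (1.08 ± 0.15). TAPBPL, a peptide editor of MHC class I, differed by 1.06 ± 0.17 and overlaps VAMP1 on the other strand. NBEAL1 (1.03 ± 0.18) and ATAD3C (0.98 ± 0.15) were further members of this set, whose choice as the largest differences of protein-coding genes of at least 500 bases was made after the values were seen.

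Histone mRNAs of DNA synthesis normally lack a poly(A) tail. Of 52 histone genes listed, 16 reached the level tested. Among the 16, 6 were higher after radiation and 0 after nab-paclitaxel, against 5.58% and 10.6% of all tested genes. The list median was 0.29. HIST1H2BD read 52.5, 52.2 and 53.2 FPKM after radiation and 36.5, 31.6 and 32.9 FPKM after nab-paclitaxel (0.63 ± 0.09, adjusted p = 0.00119), both above the untreated 25.9, 21.2 and 23.2 FPKM. HIST2H2BE (0.59 ± 0.10) and HIST1H2AC (0.74 ± 0.14) were called as well, and HIST1H2AC in nab-paclitaxel replicate 1, at 27.1 FPKM, was above the other 2 drug-treated libraries. The direction was the reverse of that of the replication factors in the same libraries. Histone genes are near-identical copies, so the split of reads among them is uncertain. With a floor of 5 FPKM, which leaves weaker histone genes untested, 3 were called, and 4 were called without nab-paclitaxel replicate 1.

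Tubulin is the protein that paclitaxel binds. Of 10 tested alpha- and beta-tubulin genes 6 were higher after nab-paclitaxel and 0 after radiation, against 10.6% and 5.58% of all tested genes. The list median was -0.61. The coding start is shown because the decay of tubulin mRNA that responds to free tubulin reads the first 4 amino acids as they leave the ribosome. The first 30 coding bases are given from GENCODE release 29, with the first 4 codons in capitals, for the 6 called genes.
TUBB: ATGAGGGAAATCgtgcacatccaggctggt
TUBB4B: ATGAGGGAAATCgtgcacttgcaggccggg
TUBB6: ATGAGGGAGATCgtgcacatccaggcgggc
TUBA1B: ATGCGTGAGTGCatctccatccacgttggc
TUBA1A: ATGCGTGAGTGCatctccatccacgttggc
TUBA1C: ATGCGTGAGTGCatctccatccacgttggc

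Among 11202 tested protein-coding genes with an annotated coding start, 10 began with codons for the alpha or beta form of that start, and these were the 10 tubulins. The start therefore did not separate the 6 called tubulins from TUBB2A (-0.54 ± 0.17, adjusted p = 0.0523), TUBA4A (-0.29 ± 0.11), TUBB4A (-0.09 ± 0.14) and TUBB3 (0.11 ± 0.12), which did not pass. Gamma-tubulin, TUBG1, which nucleates microtubules and lacks the start, differed by -0.50 ± 0.10 (adjusted p = 0.0096) and lost its call after quantile normalization (-0.34, adjusted p = 0.0720). TUBA1A, TUBA1B and TUBA1C are identical over the 30 bases shown and are close copies, so reads may be split among them.

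TUBB, a beta-tubulin, read 87.5, 84.2 and 86.3 FPKM after radiation and 210.3, 192 and 199 FPKM after nab-paclitaxel (-1.21 ± 0.07, adjusted p = 1.01e-05). Untreated cells were between them at 127 ± 1.95 FPKM, and both treatments had moved TUBB, radiation by -0.56 ± 0.07 and nab-paclitaxel by 0.65 ± 0.07. TUBA1B was alike, with 23.6, 24.2 and 23.6 FPKM after radiation, 60.1, 70.4 and 63.9 FPKM after nab-paclitaxel and 37.5 ± 5.77 FPKM in control. TUBB4B had another pattern: 91.5, 96.5 and 90.8 FPKM after radiation overlapped the untreated 113, 88.2 and 110.4 FPKM, and the 199.7, 203 and 188 FPKM after nab-paclitaxel stood above both (-1.08 ± 0.11). The control mean was between the treatments in 5 of the 10 genes and below both in the other 5. The shares of all tested genes were 42.8% and 29.1%.

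Of 24 genes for tubulin folding and the decay pathway 11 were higher after nab-paclitaxel and 0 after radiation, with a median of -0.41, and 8 of the 11 were subunits of the CCT chaperonin, such as CCT5 (-0.49 ± 0.08) and TCP1 (-0.53 ± 0.11). TTC5, the protein that recognises the nascent tubulin start, differed by -0.09 ± 0.10 and did not pass. The folding count was 5, 4 and 5 without radiation replicate 1, 2 and 3, and 0 after quantile normalization. Among 29 other microtubule-associated genes 8 were higher after nab-paclitaxel, led by the spindle kinesin KIFC1 (-1.05 ± 0.12), and 1 after radiation, MAP1B (0.45 ± 0.11), with a median of -0.04. Beside both lists, 10.6% of all tested genes were called higher after nab-paclitaxel and 5.58% higher after radiation. MAP1B was not called without radiation replicate 1 or 3 or nab-paclitaxel replicate 1 (adjusted p = 0.0662 to 0.0915).

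**Figure D4:**
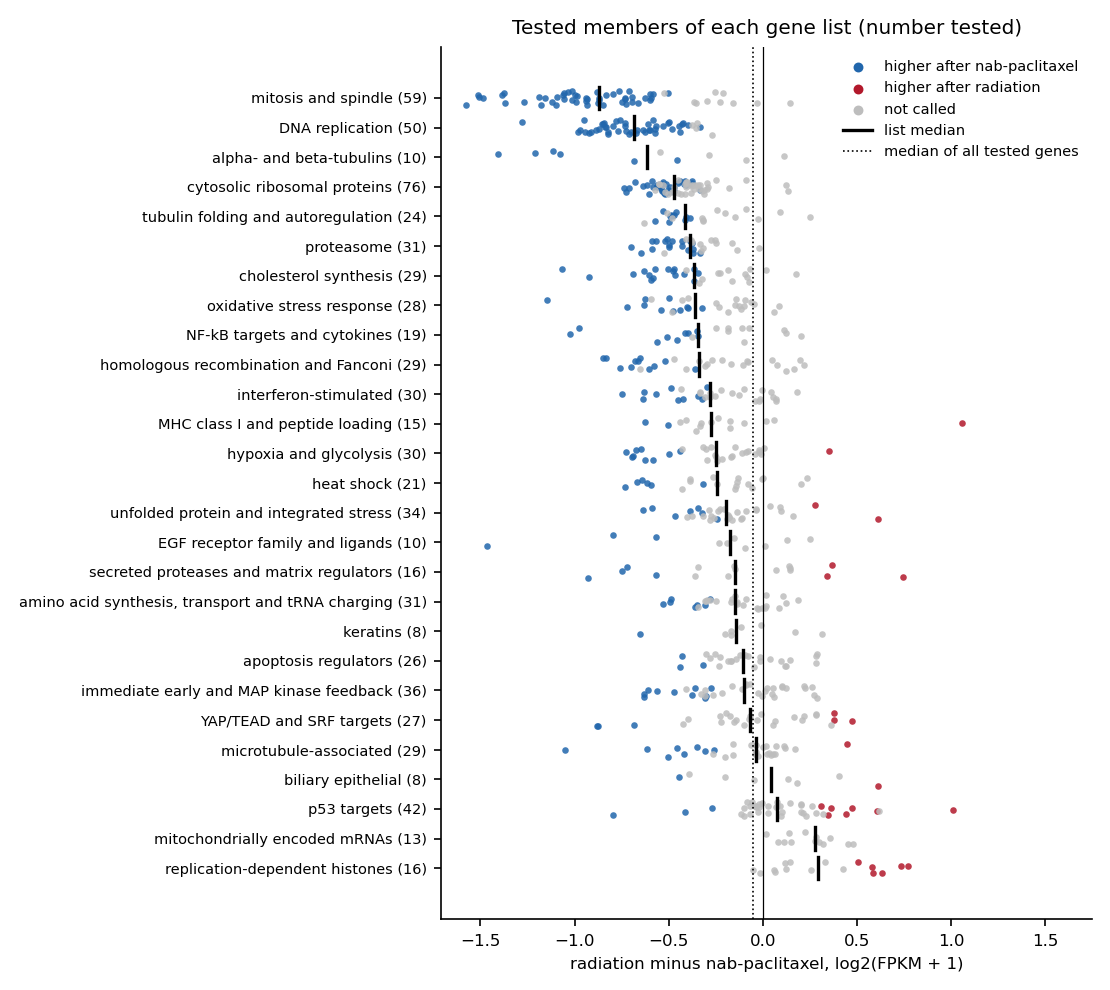
Radiation minus nab-paclitaxel difference, on the log2(FPKM + 1) scale, of each tested member of the 27 gene lists with at least 5 tested members; black bars are list medians and the dotted line is the median of all tested genes, -0.05. Mitosis (-0.87), DNA replication (-0.69) and tubulins (-0.61) lie farthest to the left, and the medians of p53 targets, biliary genes, mitochondrial mRNAs and histones are above 0.

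Several growth factor ligands and feedback genes were lower after radiation than after nab-paclitaxel. EREG, which encodes the EGF receptor ligand epiregulin, read 8.87, 8.63 and 9.31 FPKM after radiation and 29.96, 24.3 and 25.3 FPKM after nab-paclitaxel (-1.46 ± 0.16, adjusted p = 3.13e-04). The drug-treated libraries overlapped the untreated 19.7, 30.2 and 22.1 FPKM, and radiation lay below all of them. ERRFI1, a feedback inhibitor of the EGF receptor, read 157, 147 and 155 FPKM after radiation and 291, 248 and 261 FPKM after nab-paclitaxel (-0.79 ± 0.09). AREG, another ligand, differed by -0.57 ± 0.12 and did not pass after quantile normalization (-0.17, adjusted p = 0.236) or without radiation replicate 1 (adjusted p = 0.0502). Of 10 EGF receptor family genes these 3 were called (list median -0.17), and EGFR itself was not (0.25 ± 0.12). Of 36 immediate early and MAP kinase feedback genes 10 were higher after nab-paclitaxel and 0 after radiation, with a median of -0.10. IER3 (-0.63 ± 0.09) and the AP-1 subunit FOSL1 (-0.61 ± 0.11) were the first by p. Beside both lists, 10.6% of all tested genes were called higher after nab-paclitaxel and 5.58% higher after radiation.

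Some inflammatory genes were higher after nab-paclitaxel, with counts that moved with single libraries. CXCL1, a neutrophil-attracting chemokine, read 3.75, 2.93 and 3.54 FPKM after radiation and 10.3, 7.01 and 6.9 FPKM after nab-paclitaxel (-1.02 ± 0.15, adjusted p = 0.00182), without overlap. CXCL8, also called interleukin 8, read 12.7, 11.1 and 13.5 FPKM after radiation and 36.7, 20.2 and 21.9 FPKM after nab-paclitaxel, where replicate 1 stood well above the other drug-treated libraries (-0.98 ± 0.22; adjusted p = 0.0519 without radiation replicate 2). The list of 19 NF-kB targets and cytokines had a median of -0.34. Of these 9 were higher after nab-paclitaxel and 0 after radiation, against 10.6% and 5.58% of all tested genes. That count fell to 3, 3 and 3 without radiation replicate 1, 2 or 3, to 4, 3 and 5 without nab-paclitaxel replicate 1, 2 or 3, to 5 without combination replicate 3, to 5 after quantile normalization and to 5 with the replicate number as a block. Of 30 interferon-stimulated genes 10 were higher after nab-paclitaxel, first by p IFITM3 (-0.75 ± 0.10) and IFITM2 (-0.63 ± 0.10), which block virus entry and share sequence, and 0 after radiation, with a median of -0.28. The interferon count was 3, 3 and 5 without radiation replicate 1, 2 or 3, 5 without nab-paclitaxel replicate 1 or 2, and 6 after quantile normalization. Classical members such as ISG15 (-0.33 ± 0.15) and OASL (-0.01 ± 0.08) did not pass. Of 15 genes of MHC class I and peptide loading 2 were higher after nab-paclitaxel (TAPBP and PSMB9) and 1 after radiation (TAPBPL), with a median of -0.27, counts near the 10.6% and 5.58% of all tested genes. PSMB9 was not called without radiation replicate 1 or 3 or nab-paclitaxel replicate 1 or 2 (adjusted p = 0.0776 to 0.130).

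Of 16 secreted proteases and matrix regulators 4 were higher after nab-paclitaxel and 3 after radiation, against 10.6% and 5.58% of all tested genes. The list median was -0.15. PLAUR, the urokinase receptor, read 4.02, 4.49 and 4.44 FPKM after radiation and 10.8, 8.34 and 8.39 FPKM after nab-paclitaxel (-0.93 ± 0.12), and its ligand urokinase, PLAU, 12.5, 14.8 and 15.1 and 22.3, 25.1 and 24.3 FPKM (-0.72 ± 0.10). Both stood higher after the drug without overlap. TIMP2, an inhibitor of metalloproteinases (0.34 ± 0.07), and the laminins LAMA3 and LAMB3 were the 3 higher after radiation. Among 27 targets of YAP/TEAD and SRF (median -0.07) 3 were called in each direction, against 5.58% of all tested genes higher after radiation and 10.6% higher after nab-paclitaxel. CTGF (0.38 ± 0.11), CYR61 (0.38 ± 0.11) and CRIM1 (0.47 ± 0.10), known YAP targets, were higher after radiation, whereas the actins ACTB (-0.88 ± 0.08) and ACTG1 (-0.87 ± 0.09) and the tropomyosin TPM4 (-0.68 ± 0.06) were higher after nab-paclitaxel. CTGF was not called without any 1 radiation library, nab-paclitaxel 2 or 3 or combination 1 or 3 (adjusted p = 0.0506 to 0.125), nor CYR61 without any 1 radiation library, nab-paclitaxel 1 or 3, control 3 or combination 1 or 3 (0.0508 to 0.142). ACTB, often used as a constant reference, read 299.98, 292 and 296 FPKM after radiation and 615, 525 and 506 FPKM after nab-paclitaxel; its difference was -0.47 after quantile normalization. ACTB and ACTG1 share most of their coding sequence.

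Some genes of metabolism and protein turnover were higher after nab-paclitaxel. Of all tested genes 10.6% were called in that direction and 5.58% higher after radiation. NQO1, a quinone reductase under NRF2, read 73.5, 71.5 and 73.1 FPKM after radiation and 187, 149 and 153 FPKM after nab-paclitaxel (-1.15 ± 0.09, adjusted p = 3.51e-05), with the untreated mean at 127 ± 4.6 FPKM, and 11 of 28 oxidative stress genes were called in that direction and 0 after radiation (list median -0.36). That count was 4 after quantile normalization and 18 without the 3 libraries that stood apart. FDFT1, squalene synthase, read 12.5, 13.5 and 13.6 FPKM after radiation and 28.2, 24.3 and 25.6 FPKM after nab-paclitaxel (-0.92 ± 0.08). For FDFT1 the radiation libraries overlapped the untreated 15.2, 13.3 and 14.4 FPKM, and the drug-treated libraries were above. INSIG1, the sterol-sensing brake on SREBP, had 3.88, 4.33 and 4.26 FPKM after radiation and 12.1, 8.59 and 9.03 FPKM after nab-paclitaxel (-1.07 ± 0.14). Of 29 cholesterol and fatty acid synthesis genes 16 were higher after nab-paclitaxel and 0 after radiation, with a median of -0.37; the count was 8, 7 and 9 without radiation replicate 1, 2 or 3, and 5 after quantile normalization.

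Of 76 cytosolic ribosomal protein genes 40 were higher after nab-paclitaxel and 0 after radiation, against 10.6% and 5.58% of all tested genes. The list median was -0.47, and the control mean was between the treatments in 74 of the 76, against 42.8% of all tested genes. RPL22 led by p (21.7, 19.3 and 21.7 FPKM after radiation, 37, 31.9 and 30.3 FPKM after nab-paclitaxel). The ribosomal count moved with single libraries and with the scaling: it was 7, 13 and 9 without radiation replicate 1, 2 or 3, 21 without nab-paclitaxel replicate 1, 24 with the length trend removed and 3 after quantile normalization. Without the 3 libraries that stood apart it was 57. Of 31 proteasome genes 18 were higher after nab-paclitaxel, among them PSMB3 (-0.70 ± 0.11) and PSMB6 (-0.65 ± 0.11), and 0 after radiation, with a median of -0.39; the count was 10 and 11 without radiation replicate 1 or 2, and 9 after quantile normalization. For the proteasome the median change from control was -0.03 after radiation and 0.38 after nab-paclitaxel. Of 30 hypoxia and glycolysis genes (median -0.25) 9 were higher after nab-paclitaxel, including PGAM1 (-0.62 ± 0.07) and PGK1 (-0.58 ± 0.08), and 1 after radiation, the glucose transporter SLC2A1 (0.35 ± 0.11). The glycolysis count after nab-paclitaxel was 5 after quantile normalization and 16 without the 3 libraries that stood apart. SLC2A1 was not called without any 1 radiation library, nab-paclitaxel 1 or 3, control 1 or combination 1 or 3 (adjusted p = 0.0546 to 0.136). GAPDH read 291, 286 and 294 FPKM after radiation and 471, 467 and 455 FPKM after nab-paclitaxel and did not pass after quantile normalization (-0.21, adjusted p = 0.176). Of 21 heat shock genes (median -0.24) 6 were higher after nab-paclitaxel, HSP90AB1 (-0.64 ± 0.08) the first of them by p, and 0 after radiation. In the most abundant quintile of protein-coding genes 26.3% were called higher after nab-paclitaxel. That share is to be set beside the ribosomal, proteasome, oxidative stress, glycolysis and heat shock counts.

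Of 34 unfolded protein and integrated stress genes 7 were higher after nab-paclitaxel and 2 after radiation, with a median of -0.20. The shares of all tested genes were 10.6% and 5.58%, so the radiation count was near its share. The control mean was above both treatments in 29 of the 34, against 28.1% of all tested genes. ASNS, asparagine synthetase, read 9.46, 9.54 and 8.69 FPKM after radiation and 4.65, 6.14 and 6.41 FPKM after nab-paclitaxel (0.61 ± 0.12, adjusted p = 0.00642), all below the untreated 12, 15.5 and 12.5 FPKM. HSPA5, the chaperone of the endoplasmic reticulum, differed by -0.39 ± 0.10 and ATF4, the regulator of the pathway, by -0.34 ± 0.11, both higher after nab-paclitaxel. Both signs turned after quantile normalization (HSPA5 0.23, ATF4 0.04), and neither was then called. HSPA5 was also lost without radiation replicate 1, 2 or 3 (adjusted p = 0.0811 to 0.0943), and ATF4 without any 1 radiation or nab-paclitaxel library, control 1 or 3 or combination 3 (0.0503 to 0.15). Of 31 genes for amino acid synthesis, transport and tRNA charging 7 were higher after nab-paclitaxel and 0 after radiation, with a median of -0.15. MTHFD2, a mitochondrial folate enzyme, was the first of them by p (-0.49 ± 0.10; adjusted p = 0.216 after quantile normalization). Of 26 apoptosis regulators 3 were higher after nab-paclitaxel (BID, MCL1 and BIK) and 0 after radiation, with a median of -0.11, a count near the 10.6% of all tested genes. MCL1 was not called without any 1 radiation library or nab-paclitaxel replicate 1 (adjusted p = 0.0592 to 0.0980), nor BIK without radiation replicate 1 or 3 or nab-paclitaxel replicate 1 or 2 (0.0963 to 0.130). Of the 13 mitochondrially encoded mRNAs, 0 were called by limma at an adjusted p of 0.05, 3 were higher after radiation at an unadjusted p of 0.05, and voom on recovered fragments called 1. Their median difference was 0.28, and MT-ATP8, a subunit of ATP synthase, had the highest value of the 13 (0.48 ± 0.20, adjusted p = 0.116).

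Against 16.1% of all tested genes called in either direction, of 8 tested keratins (median -0.14) 1 differed, KRT23 (-0.65 ± 0.11), and of 8 biliary genes (median 0.05) 2, with ONECUT2, a hepatobiliary transcription factor, higher after radiation (0.61 ± 0.13) and EPCAM higher after nab-paclitaxel (-0.45 ± 0.11). EPCAM did not pass without radiation replicate 1, 2 or 3 (adjusted p = 0.0554 to 0.0709) or after quantile normalization (-0.06). Of 19 macrophage markers 1 reached the level tested: ITGAX, an integrin, read 2.52, 2.48 and 2.32 FPKM after radiation and 0.988, 1.46 and 1.56 FPKM after nab-paclitaxel. The macrophage markers summed to 4.04 to 5.34 FPKM after radiation and 2.16 to 2.86 FPKM after nab-paclitaxel. Below the level tested, CSF1R had a mean of 0.719 FPKM over the 12 libraries and CD14 0.305 FPKM. CD163 had a mean of 0.0112 FPKM and PTPRC 0.0152 FPKM. Of 15 fibroblast markers 3 were tested and COL1A1 was higher after radiation (0.55 ± 0.09), with the list summing to 12.7 to 14.8 FPKM after radiation and 11 to 12.6 FPKM after nab-paclitaxel. The part of other cells in any result was not tested.

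The direction of a call went with the kind, length and level of the gene. Among 11227 protein-coding genes 472 were higher after radiation and 1369 after nab-paclitaxel, whereas among 1190 long noncoding and other genes the numbers were 167 and 26, among 798 pseudogenes 100 and 40, and among 394 small RNA genes 21 and 1. Protein-coding genes took 95% to 95.1% of fragments in the radiation libraries and 95.9% to 96.2% in the nab-paclitaxel libraries. In the shortest quintile of protein-coding genes (207 to 2951 bases) 2.98% were called higher after radiation and 20.3% higher after nab-paclitaxel. In the longest quintile (8222 to 42341 bases) the shares were 8.64% and 4.05%. By level, the lowest quintile had 7.35% higher after radiation and 2.94% after nab-paclitaxel, and the highest quintile 1.6% and 26.3%.

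Libraries differed in the same property within a group. The median log2 deviation of the longest quintile minus that of the shortest was 0.08 to 0.14 in the radiation libraries, and -0.32, -0.15 and -0.02 in nab-paclitaxel replicates 1, 2 and 3. With the trend removed in each library, the shortest quintile had 116 genes higher after radiation and 252 after nab-paclitaxel and the longest 135 and 135. In that setting the counts higher after nab-paclitaxel were 44 for mitosis, 40 for replication, 5 for tubulins and 24 for ribosomal proteins, against 49, 46, 6 and 40 without it. Whether the trend with length belongs to the cells or to the libraries was not tested.

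**Figure D5:**
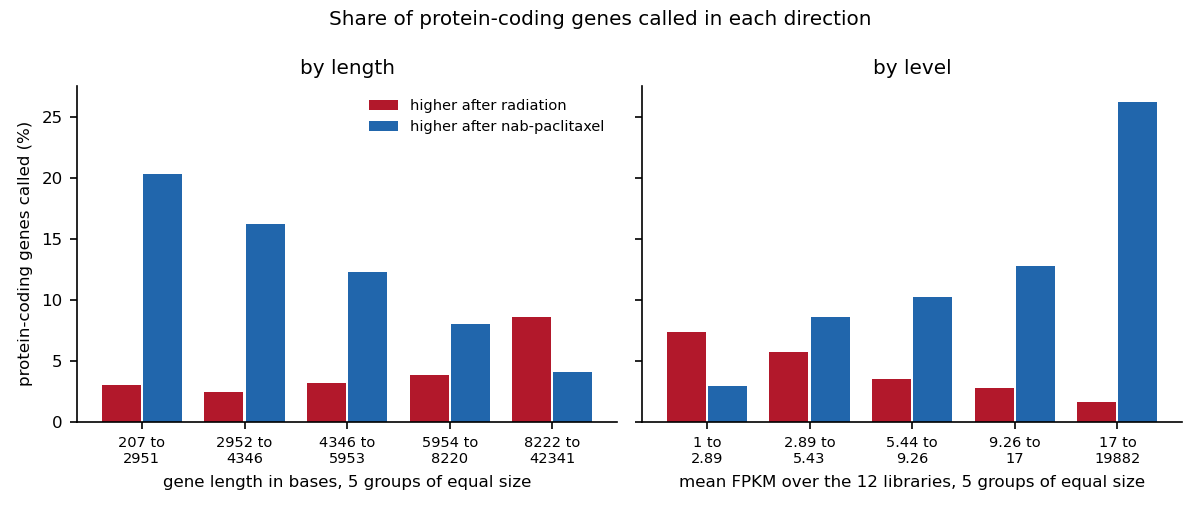
Share of the 11227 tested protein-coding genes called higher after radiation (red) or after nab-paclitaxel (blue), in 5 groups of equal size by gene length (left) and by mean FPKM (right). The share higher after nab-paclitaxel drops from 20.3% in the shortest to 4.05% in the longest genes and climbs from 2.94% to 26.3% with level, and the share higher after radiation is 8.64% in the longest genes and 7.35% at the lowest level.

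The 15 largest differences on the radiation side by the naming rule, a mean of at least 2 FPKM after radiation and no overlap, were mostly small genes. Of the 15, 11 were shorter than 300 bases, 6 were small RNAs, 5 pseudogenes and 3 long noncoding or other, and 12 to 148 fragments stood behind the short ones over the 3 radiation libraries together. Several lie inside longer genes, such as RNU6-26P in DCBLD2 and RNA5SP195 in MATR3, so their reads may belong to the host. Neither of these hosts was called (DCBLD2 0.05, MATR3 0.18), and the part of host reads was not tested. TCTEX1D4, a dynein light chain, was the protein-coding member, at 8.7, 10.6 and 8.44 FPKM after radiation and 1.42, 2.25 and 4.08 FPKM after nab-paclitaxel (1.58 ± 0.22). Across the 18 lists of at least 5 tested members with 0 genes higher after radiation by limma, 530 genes in all, 10 were higher after radiation at an unadjusted p of 0.05 and voom called 1. On the nab-paclitaxel side the 15 largest held 14 protein-coding genes, most of them named above, with PBK, a mitotic kinase (-1.23 ± 0.24), and ANP32B, a chromatin-associated histone chaperone (-1.19 ± 0.12), in addition.

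Setting both other groups beside the contrast, the untreated mean lay between radiation and nab-paclitaxel in 78.8% of genes higher after nab-paclitaxel and in 73.7% of those higher after radiation, compared with 42.8% of all tested genes. Genes called for a gap leave more room between the groups, so these shares are a description. The combination mean lay between the single treatments in 78.6% and 80.0% of them and in 44.2% of all. RRM2 in the combination, at 7.08, 8.58 and 7.8 FPKM, was next to radiation; FDFT1, at 23.5, 22.9 and 23.2 FPKM, was next to nab-paclitaxel. CDC20, at 23.8, 22.6 and 25.4 FPKM, was close to the untreated mean of 22 ± 1.43 FPKM. For CDKN1A the combination, at 341, 322 and 350.04 FPKM, exceeded every library of either single treatment, and for SFN it did so too, at 106, 74.9 and 92.3 FPKM.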

How the data were processed

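The 12 libraries of TFK1 cells, 3 in each of 4 groups, were analysed from 1 deposited table of FPKM values for 58735 genes. The authors made the FPKM values by scaling fragments to gene length and to a divisor for each library. Per the submitters' processing notes they used the build hg38. Neither the aligner nor the counting tool, nor whether strand was used, is stated in what was read. Low values were whole multiples of 1 fragment, which gave back whole fragments for 100% of values within 0.05 and the depth of each library. The divisor behind each column of the deposited FPKM table was 0.922 to 1.06 times the recovered total of its library, and equalled the product of a median-of-ratios size factor and the geometric mean of the totals. The values had thus been scaled between libraries before deposit.

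Genes whose mean over the 12 libraries reached 1 FPKM were compared on log2(FPKM + 1) with limma 3.58.1 in R 4.3.3, with a mean-variance trend. All 4 groups shared 1 estimate of the spread (8 residual and 3.39 prior degrees of freedom), tests were two-sided, and Benjamini-Hochberg adjustment ran over all 13609 genes. The scripts were tested on simulated data. The members and gene lists were chosen with earlier results of these data known. Lists are described by counts and medians.

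Named genes were the 15 largest differences in each direction among called genes without overlap and with at least 2 FPKM in the higher group, up to 4 called genes of each list by p (otherwise the 2 most abundant), ACTB, GAPDH, CDKN1A and MDM2. Further genes were named after their values were seen. They were long noncoding RNAs of at least 1500 bases without a clone name, and protein-coding genes of the radiation side of at least 500 bases. Another 41 list members were given beside their list. Of the 184 named genes, 55 overlap another tested gene. A few items are not reported here. Promoters came from RefSeq (GRCh38.p14) and coding starts from GENCODE 29. The settings varied were the pseudocount (0.1), the filter (none, or a floor of 5 FPKM), quantile normalization, TPM scaling, a replicate block, the 6 libraries alone, voom on recovered fragments, no variance trend and each library left out. Those added after the data were seen left out 3 libraries, kept protein-coding genes, or removed a length trend by a lowess curve.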

Additional observations from a re-analysis of the deposited data

How the results depend on the processing

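Counts for mitosis, replication and tubulins stayed within 1.5 times their value under every alternative run, except replication at the floor of 5 FPKM. That floor leaves weaker members untested, and the cause of the other changes below was not tested. The counts are of genes higher after nab-paclitaxel unless p53 targets or histones, which are of genes higher after radiation. With no filter there were 884 genes higher after nab-paclitaxel, 5 in tubulin folding, 12 ribosomal, 10 in cholesterol synthesis, 5 interferon-stimulated and 4 NF-kB genes. With a floor of 5 FPKM 7482 genes were tested, and 274 were higher after radiation. The counts were 30 in replication, 2 in homologous recombination and 3 histones. Of the named genes called at the floor of 1 FPKM, 123 were tested at 5 FPKM and all 123 were still called. After quantile normalization 786 genes were higher after nab-paclitaxel, with 14 p53 targets, 0 folding, 3 ribosomal, 9 proteasome, 5 cholesterol, 5 glycolysis, 6 interferon, 5 NF-kB and 4 oxidative stress genes, and HSPA5 (0.23) and ATF4 (0.0399) turned sign. TPM scaling gave 7 folding, 10 cholesterol, 5 interferon and 4 NF-kB genes. With the length trend removed there were 942 genes higher after nab-paclitaxel, 7 folding, 24 ribosomal, 6 interferon and 3 NF-kB genes. Without the 3 libraries that stood apart 4077 genes were called, 1381 higher after radiation and 2696 higher after nab-paclitaxel, with 12 p53 targets, 16 glycolysis and 18 oxidative stress genes. The last 2 settings were chosen after seeing the data.

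Leaving out 1 library at a time gave 951 to 2806 calls, 317 to 952 higher after radiation and 634 to 1854 higher after nab-paclitaxel. By list the ranges were 42 to 50 mitosis, 37 to 48 replication, 9 to 14 recombination, 4 to 8 p53, 4 to 6 histone, 5 to 7 tubulin, 4 to 12 folding, 7 to 47 ribosomal, 10 to 23 proteasome, 7 to 17 cholesterol, 7 to 13 glycolysis, 3 to 13 interferon, 3 to 10 NF-kB and 8 to 13 oxidative stress genes. Where 1 library of a group was left out, the other 2 carried that group and the spread came from all groups. Voom on recovered fragments called 2405 genes and the 6 libraries alone 1967.

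The labels number the replicates of each group 1 to 3 without saying that a number is shared. Deviations of same-numbered radiation and nab-paclitaxel libraries correlated at 0.03, 0.18 and -0.08 over genes, and 1 of 3 radiation libraries correlated best with its own number, so the numbers were not treated as pairs. With the replicate block 1742 genes were called, and the NF-kB count was 5. Genes under a mean of 1 FPKM were not compared, and at this depth short genes near that level rest on few fragments.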

Other observations

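Some genes of the radiation side lay next to each other, as was seen after the values were known. In the olfactory receptor cluster beside HBG2, 7 of 10 tested genes were higher after radiation by limma. The share was 5.58% of all tested genes and 12.5% of tested pseudogenes. Among the 7 were OR51B2 (1.09 on the log2(FPKM + 1) scale), OR51B6 (1.14), OR51B4 (0.51) and the pseudogenes OR51B3P, OR51B8P and AC104389.2, while HBG2 was not called (0.05). The annotated span of OR51B5 (0.51) overlaps several of these genes. The neighbours TCTEX1D4 (1.58) and BTBD19 (1.26) were both higher after radiation, as were ZNF117 (1.19) and ERV3-1 (1.15), which overlap on the same strand. The part of shared reads in these pairs was not tested.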
